A study of Mus musculus with 6 samples.

Results

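The ERBB receptors and their neuregulin and EGF-type ligands were examined in sciatic nerves of mice bred to delete Zeb2, a zinc finger transcription factor also called Sip1, in Schwann cells. The group was defined by gene name and held 10 genes, of which 9 were measured, out of 20239 named genes on the arrays, each by 1 probe set. They were the receptors Egfr, Erbb2, Erbb3 and Erbb4, the neuregulins Nrg1, Nrg2 and Nrg3, and the ligands Btc and Hbegf. The tenth gene, Areg, was matched to a promoter sequence only, and its expression was not analysed here. The 3 mutant mice had the genotype DhhCre::Sip1 flox/flox, and the 3 control mice were Sip1 flox/flox without Cre. All were 25 days old, and each gave 1 Affymetrix whole-transcript array of total nerve RNA. DhhCre places Cre recombinase under control of Desert hedgehog sequences, which are active in the Schwann cell lineage. Which cells of these nerves lost the floxed gene was not measured. No group carried Cre alone, so effects of Cre and of the deletion cannot be told apart.

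ERBB receptors are tyrosine kinases of the cell surface that signal as pairs. EGFR binds EGF-type ligands such as HB-EGF, betacellulin and TGF-alpha, while ERBB3 and ERBB4 bind neuregulins. ERBB2 has no known ligand and acts as a partner, and ERBB3 has little kinase activity of its own. In peripheral nerve, neuregulin 1 on axons acts on the ERBB2 and ERBB3 pair of Schwann cells and controls their survival, migration and the thickness of the myelin they make. The ligands are made as membrane proteins and are released or activated by proteases.

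Values are log2 expression values as deposited, and a difference is a mutant mean minus a control mean. A gene passed the test at a Benjamini-Hochberg adjusted p under 0.05 over all named genes in limma, a linear model that shares the estimate of spread across genes. Array medians lay between 8.02 and 8.11, and values well below them may be array background, which compresses differences. Levels of different genes cannot be compared, because each probe set has its own brightness. The targeted gene Zeb2 stood at 10.96, 10.66 and 11.01 in mutants 1 to 3, against 11.67, 11.57 and 12.02 in controls 1 to 3 (difference −0.88, limma adjusted p = 0.0137, and 0.0522 without mutant 1). Of 10 Schwann cell markers 7 were measured, with control means between 8.30 and 14.44. Skeletal muscle differed between samples of both groups, with list means of 7.77, 12.14 and 9.65 in mutant nerves, against 7.85, 12.17 and 10.23 in control nerves. Expression of Xist and of genes on the Y chromosome marked mutants 1 and 2 and control 3 as male, and mutant 3 and controls 1 and 2 as female.

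Of the 9 measured genes, Hbegf, Nrg1 and Egfr rose, Erbb3 fell, and 5 did not pass. Over all genes 9.62% passed, 5.74% as higher and 3.89% as lower. At an unadjusted p under 0.05 in limma, 2770 of all 20239 genes were higher and 1755 lower, which is the background for such counts below. The median difference of the 9 genes was 0.05, against −0.02 over all genes. The groups did not overlap in 4 of the 9 genes, those that passed, and in 28.1% of all genes. Not overlapping means that all 3 mutant values lay on the same side of all 3 control values.

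The deleted factor is known to bind E-box sequences with the core CACCTG and the shorter half-site CACCT. RefSeq promoter sequence, 250 bases before to 50 after the transcription start in build GRCm38.p6, was used for 6 of the 10 genes. Windows on a chromosome set aside before the search were not used, so a gene without a window here may still have one. The promoter of the receptor that rose, Egfr, and that of Tgfa, an EGFR ligand that fell, are shown because these genes moved in opposite directions. CACCT on either strand (AGGTG as read here) is in capitals, and sequences run 5′ to 3′ along the gene.

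Egfr, chr11:16751953-16752252, plus strand: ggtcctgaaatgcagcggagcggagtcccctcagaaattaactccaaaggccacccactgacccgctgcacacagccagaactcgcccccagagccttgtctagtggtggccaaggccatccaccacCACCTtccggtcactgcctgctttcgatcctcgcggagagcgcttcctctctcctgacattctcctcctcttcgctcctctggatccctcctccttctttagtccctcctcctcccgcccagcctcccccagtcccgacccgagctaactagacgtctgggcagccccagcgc

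Tgfa, chr6:86194972-86195271, plus strand: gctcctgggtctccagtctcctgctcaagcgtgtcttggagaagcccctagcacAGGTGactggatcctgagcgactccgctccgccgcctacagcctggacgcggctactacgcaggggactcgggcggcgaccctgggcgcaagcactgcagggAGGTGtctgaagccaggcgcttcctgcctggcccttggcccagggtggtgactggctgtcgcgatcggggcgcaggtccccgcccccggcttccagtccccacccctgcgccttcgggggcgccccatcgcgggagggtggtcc

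The Egfr window held CACCT once, beginning 123 bases before the start, and no CACCTG. The Tgfa window held AGGTG at 196 and 94 bases before the start, and the first of these lay within CAGGTG, the reverse of CACCTG. Among the 6 windows used for the 10 genes, that of Areg included, 5 held CACCT on either strand and 2 held CACCTG. Of all 32851 promoter windows of this length, with no chromosome set aside, 51.9% held CACCT and 20.2% held CACCTG, so the match is common.

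Among the receptors, Egfr rose and Erbb3 fell by a similar size. Egfr stood at 11.27, 10.94 and 11.28 in mutants 1 to 3, against 10.07, 9.90 and 10.24 in controls 1 to 3. The groups did not overlap, and the nearest values were 10.94 in mutant 2 and 10.24 in control 3. Egfr averaged 11.16 ± 0.19 in the mutants and 10.07 ± 0.17 in the controls (mean ± SD, n = 3 each). The difference was 1.09 (SE 0.13, 95% confidence interval 0.78 to 1.41, 2.14-fold, limma adjusted p = 0.00391). Between mutant and control mice of the same replicate number it was 1.20, 1.05 and 1.03.

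Erbb3, the neuregulin-binding partner of ERBB2 on Schwann cells, stood at 9.97, 9.71 and 10.08 in the mutants, against 10.80, 10.87 and 11.51 in the controls. No mutant value reached the lowest control value, and control 3 was the highest of the 6. The means were 9.92 ± 0.19 in mutant nerves and 11.06 ± 0.39 in control nerves. Erbb3 fell by 1.14 on the log2 scale (SE 0.20, interval −1.63 to −0.65, 2.20-fold, limma adjusted p = 0.0162). The limma adjusted p was 0.0635 without mutant 1, 0.051 without mutant 3 and 0.071 without both samples numbered 2, while the difference stayed between −1.29 and −0.91 in all 19 alternative settings. In whole nerve, fewer cells of a type and less RNA per cell cannot be told apart. Of the 7 measured Schwann cell markers, 3 fell as well, S100b (−1.51), Mbp (−1.39) and Pmp22 (−0.60), and 4 did not pass. Of those 4, Sox10 (−0.74, limma adjusted p = 0.0639) and Ngfr (−0.59, limma adjusted p = 0.0534) had groups that did not overlap, while Cdh19 (0.03) and Fabp7 (0.68) overlapped. At an unadjusted p under 0.05, 5 of the 7 were lower and 0 higher, and the median of the list was −0.60. A summed log2 level is the log2 of the sum of linear values, in which the brightest probe sets weigh most. Here the brightest was Pmp22, with means of 13.84 in the mutants and 14.44 in the controls. For the 7 markers the summed log2 level was 14.30 to 14.61 in the mutants and 15.09 to 15.35 in the controls. The part of this level in the difference of Erbb3 was not tested.

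Erbb2 and Erbb4 did not pass. Erbb2, the shared partner receptor, stood at 9.79, 9.74 and 9.78 in the mutants, against 9.69, 9.75 and 10.21 in the controls. The groups overlapped, and control 3 alone stood above the rest (difference −0.11, interval −0.45 to 0.23, limma adjusted p = 0.717). Without control 3 the difference was 0.05. Erbb4, the other neuregulin receptor, stood at 9.62, 9.05 and 9.59 in the mutants, against 9.12, 9.08 and 9.48 in the controls. Its groups overlapped too (difference 0.19, interval −0.25 to 0.63, limma adjusted p = 0.613).

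The receptors differed unequally within arrays. The log2 value of Egfr minus that of Erbb3 was 1.30, 1.24 and 1.20 in the mutants, against −0.73, −0.97 and −1.27 in the controls. The group difference of this quantity was 2.23, with an exact two-sided permutation p of 0.1, the smallest that 3 against 3 arrays can give. Erbb2 minus Erbb3 was −0.18, 0.04 and −0.30 in the mutants, against −1.11, −1.12 and −1.30 in the controls (group difference 1.03, exact two-sided permutation p = 0.1). The absolute size of these quantities has no meaning between probe sets. Both pairs were chosen after the values were seen. As Egfr was higher and Erbb3 lower in all 3 mutants, the p of the first pair could take no other value. The second pair largely restates the fall of Erbb3, and neither p is further evidence.

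**Figure D1:**
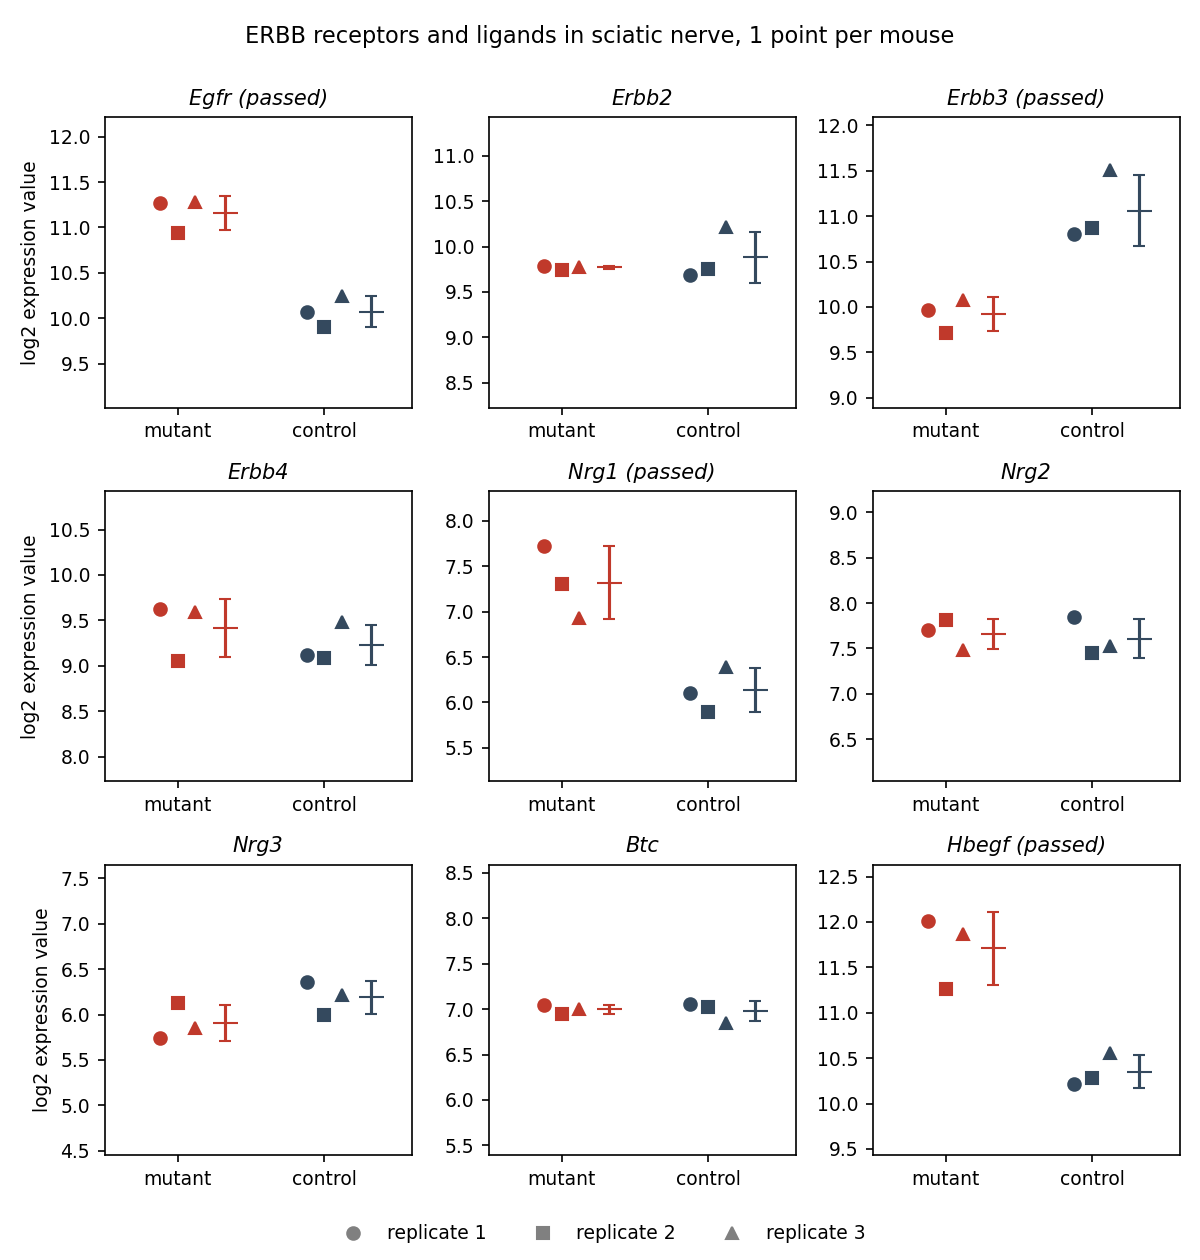
Log2 expression value (y axis, each panel spanning the same number of log2 units) of the 9 measured receptor and ligand genes in mutant (left, red) and control (right, dark) nerves, 1 point per mouse with the replicate number as symbol, and mean ± SD (n = 3) as a bar beside the points. Egfr, Nrg1 and Hbegf lie higher and Erbb3 lower in all 3 mutants, and the groups overlap in the other 5 panels.

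Of the neuregulins, Nrg1 rose. It stood at 7.72, 7.31 and 6.93 in the mutants, against 6.11, 5.90 and 6.39 in the controls. The groups did not overlap, and the nearest values were 6.93 in mutant 3 and 6.39 in control 3. The means were 7.32 ± 0.40 in mutant nerves and 6.14 ± 0.24 in control nerves (difference 1.19, SE 0.22, interval 0.67 to 1.7, 2.28-fold, limma adjusted p = 0.0171). All of these values lay below the array medians, so the difference may be compressed. The limma adjusted p was 0.0518 without control 1, 0.0568 without control 2 and 0.104 without both samples numbered 2, with differences of 1.18, 1.07 and 1.07. Nrg1 makes several isoforms, among them the membrane-bound type of axons and the soluble types that Schwann cells make after injury, and 1 probe set per gene does not separate them. Neuronal markers gave 1 of 13 that fell, Uchl1 (−0.93), and none that rose (limma, 0 higher at an unadjusted p under 0.05), with a median of −0.09. Their summed log2 level was 11.33 to 11.55 in the mutants and 11.55 to 11.84 in the controls. Some of these markers, such as Tubb3 (means 5.85 in the mutants and 5.94 in the controls), lay below the array medians. Others, such as Stmn2 (8.76 and 8.70), lay above them.

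Nrg2 and Nrg3, related neuregulins, did not pass and their groups overlapped. Nrg2 stood at 7.70, 7.81 and 7.48 in the mutants, against 7.85, 7.45 and 7.53 in the controls (difference 0.05, interval −0.28 to 0.38, limma adjusted p = 0.878). Nrg3 stood at 5.74, 6.13 and 5.85 in the mutants, against 6.36, 6.0 and 6.22 in the controls (difference −0.28, interval −0.61 to 0.05, limma adjusted p = 0.297). Both genes lay below the array medians in all 6 samples.

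Of the EGF-type ligands, Hbegf rose by 1.36 with all 6 arrays, against 1.19 for Nrg1, and by 1.28 without mutant 3, against 1.38 for Nrg1. Hbegf encodes heparin-binding EGF-like growth factor, a ligand of EGFR and ERBB4. Hbegf stood at 12.01, 11.26 and 11.87 in the mutants, against 10.22, 10.28 and 10.56 in the controls. Mutant 2 was the lowest mutant and still exceeded control 3, the highest control. The means were 11.71 ± 0.40 in mutant nerves and 10.35 ± 0.18 in control nerves (difference 1.36, SE 0.21, interval 0.87 to 1.85, 2.57-fold, limma adjusted p = 0.00854). Egfr and Hbegf passed in all 19 alternative settings, with limma adjusted p up to 0.0253 for Egfr and 0.0455 for Hbegf.

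Btc, betacellulin, stood at 7.05, 6.95 and 7.0 in the mutants, against 7.06, 7.02 and 6.85 in the controls. The groups overlapped, all values were below the array medians, and the difference was 0.03 (interval −0.19 to 0.24, limma adjusted p = 0.90).

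Markers of perineurial cells and of fibroblasts rose beside Egfr, Hbegf and Nrg1. Of 8 perineurial markers 6 rose, with a median difference of 0.92, and their summed log2 level was 14.58 to 14.76 in the mutants and 13.58 to 14.02 in the controls. Of 10 fibroblast markers 4 rose, with a median of 0.29 and a summed level of 15.74 to 15.96 in the mutants and 15.44 to 15.62 in the controls. None of 10 macrophage markers passed in limma, with 5 higher at an unadjusted p under 0.05, and their summed level was 13.43 to 13.70 in the mutants and 12.93 to 13.43 in the controls. Of 8 endothelial markers none rose and 2 fell, Cldn5 (−0.42) and Vwf (−0.43), which passed in 10 and 11 of the 19 alternative settings, and the median was −0.08. None of 12 adipocyte markers passed in limma, none had an unadjusted p under 0.05, and the median was −0.33. The part of these cells in the rise of Egfr, Hbegf and Nrg1 was not tested. With the muscle score as a covariate the differences of Egfr, Hbegf and Nrg1 were 1.08, 1.34 and 1.17. They were 1.04, 1.26 and 1.14 with the adipocyte list mean as a covariate. Muscle scores were alike in the groups, so that covariate could change little, and neither covers perineurial cells or fibroblasts.

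Of the 5 other ligands of the family 1 fell and none rose in limma, with 0 higher at an unadjusted p under 0.05. Tgfa, which encodes the EGFR ligand TGF-alpha and whose promoter is shown above, stood at 8.42, 8.50 and 8.55 in the mutants, against 9.93, 10.14 and 10.68 in the controls. The groups lay far apart, with the mutants close together. Tgfa fell by 1.76 on the log2 scale (SE 0.19, interval −2.21 to −1.32, 3.40-fold, limma adjusted p = 0.00235), and it passed in all 19 alternative settings. Within arrays, Hbegf minus Tgfa was 3.59, 2.76 and 3.32 in the mutants, against 0.28, 0.14 and −0.13 in the controls. The group difference was 3.13 (exact two-sided permutation p = 0.1, the smallest possible), for a pair also chosen after its values were seen. Neither gene overlapped between groups and they moved in opposite directions, so this p was fixed and is not further evidence.

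Egf, Ereg, Epgn and Nrg4 did not pass. Epiregulin (Ereg) and epigen (Epgn) had differences of −0.11 and −0.26, with means of 6.23 and 5.88 in mutant nerves and 6.33 and 6.15 in control nerves. Egf, with a difference of −0.21, stood at 8.20 in mutant 2 and 8.41 in control 2, against 7.07 to 7.34 in the other 4. Mutant 2 and control 2 also had the highest muscle list means. Mutant 3 and control 3, with muscle list means of 9.65 and 10.23, had Egf at 7.07 and 7.31. Mutant 1 and control 1, with muscle list means of 7.77 and 7.85, had it at 7.16 and 7.34. Nrg4 stood at 9.37, 9.96 and 9.32 in the mutants, against 10.73, 9.88 and 8.06 in the controls. Control 1 had both the highest Nrg4 and the highest adipocyte list mean (12.14), and control 3 had the lowest of each (9.96 for the list). The difference of Nrg4 was −0.01 (limma adjusted p = 0.997), but 0.52 with an adjusted p of 0.0353 in limma with the adipocyte list mean as a covariate.

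**Figure D2:**
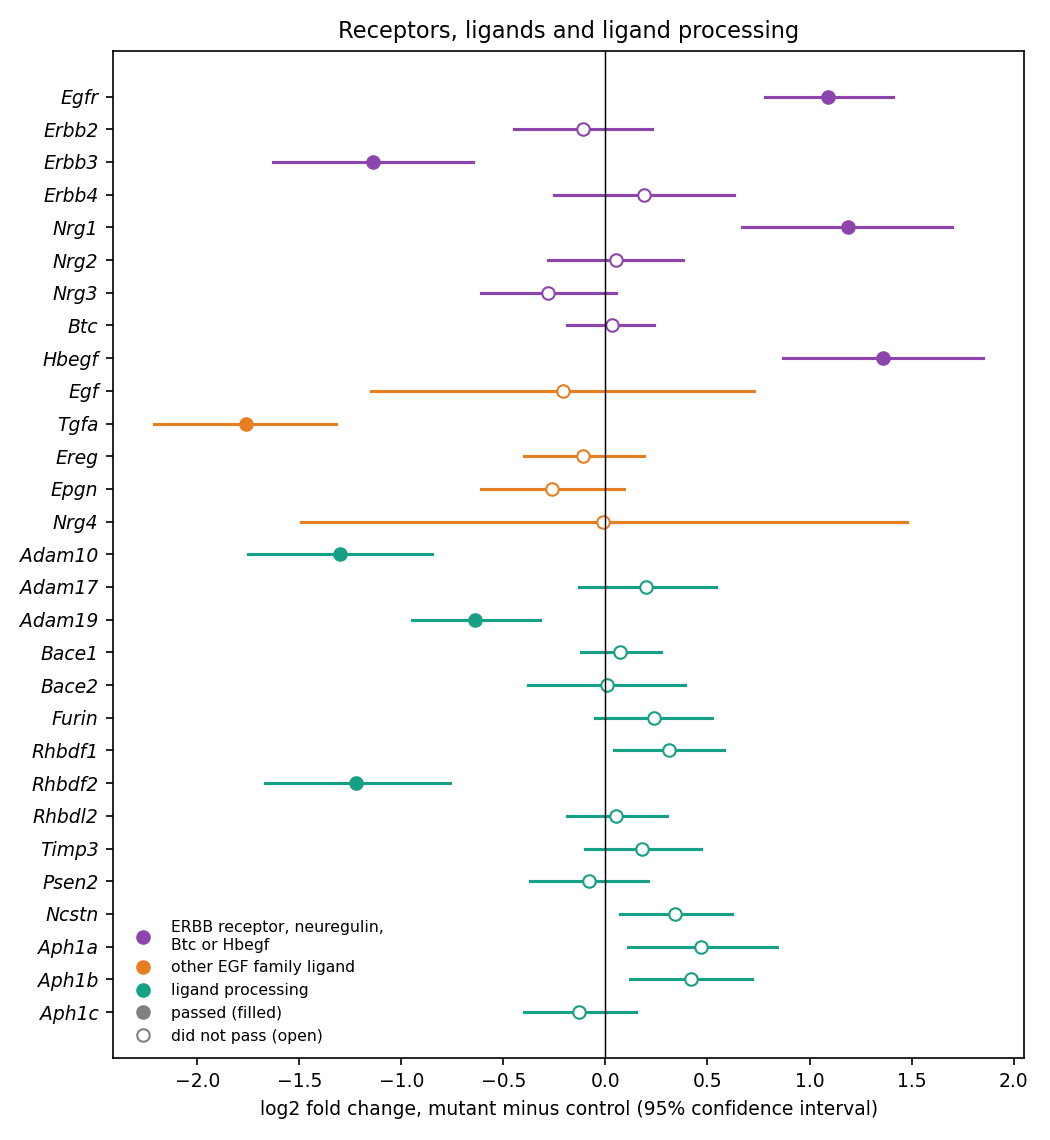
Log2 fold change, mutant minus control, with its 95% confidence interval (x axis) for the 9 receptor and ligand genes (purple), 5 other EGF family ligands (orange) and 15 genes of ligand processing (green), with filled points for genes that passed. Hbegf, Nrg1 and Egfr lie to the right and Erbb3, Tgfa, Adam10, Rhbdf2 and Adam19 to the left of 0.

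Genes that process the ligands included 3 that fell and none that rose, of 15 measured from a list of 18, with a median difference of 0.07. In limma 4 were higher at an unadjusted p under 0.05, and 2 rose without mutant 2. Adam10, a membrane protease that releases EGF and betacellulin in mouse cells, stood at 10.86, 10.52 and 10.95 in the mutants, against 11.90, 11.88 and 12.45 in the controls. The groups did not overlap, and Adam10 fell by 1.30 (SE 0.19, limma adjusted p = 0.00735). Rhbdf2 encodes iRhom2, which takes part in the maturation of the TGF-alpha-releasing protease ADAM17. Rhbdf2 stood at 8.08, 8.21 and 8.0 in the mutants, against 9.04, 9.14 and 9.76 in the controls. It fell by 1.22 (SE 0.19, limma adjusted p = 0.00969, and 0.0509 without mutant 3). Rhbdf1, in the same list, differed in the other direction by 0.31 and did not pass (limma adjusted p = 0.16). Adam19, a protease implicated in neuregulin processing, fell by 0.64 (limma adjusted p = 0.0282). Its call was lost when mutant 1 (0.0889), control 1 (0.0655), control 2 (0.0625), control 3 (0.0782) or both samples numbered 2 (0.0602) were left out. Adam17 and Bace1, whose products also act on neuregulin 1, did not pass. Adam17 had a difference of 0.20 (interval −0.13 to 0.54) and Bace1 one of 0.07 (interval −0.12 to 0.27), and both were chosen for their role after the values were seen.

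Of 26 measured genes of ERBB signalling 7 rose and none fell in limma (2 lower at an unadjusted p under 0.05), with a median of 0.12. By size these were the kinase Src (0.88), the PI3-kinase subunit Pik3r3 (0.80), the phospholipase Plcg1 (0.80), the exchange factor Vav2 (0.60), and the adaptors Gab2 (0.54) and Shc1 (0.45), followed by Nfatc4 (0.40), a calcineurin-dependent transcription factor. Plcg1, which ERBB receptors recruit and activate, stood at 10.47, 10.33 and 10.38 in the mutants, against 9.78, 9.64 and 9.36 in the controls (limma adjusted p = 0.00883). Src stood at 9.85, 9.30 and 9.79 in the mutants, against 8.75, 8.70 and 8.82 in the controls (limma adjusted p = 0.0142). In these genes all 3 mutant values lay above the control values. The count was 1 without mutant 1 or mutant 3, 2 without control 2, 4 without control 1, and 3 without both samples numbered 2. Src itself did not pass without mutant 1 (0.0613), mutant 3 (0.0698) or control 2 (0.0511). Nfatc4 passed narrowly (limma adjusted p = 0.049) and in only 9 of the 19 alternative settings. It did not pass, for example, with the replicate number as a block (limma adjusted p = 0.0689). Gab2, Vav2, Shc1 and Pik3r3 passed in 11, 12, 14 and 15 of the 19.

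Of 22 measured negative regulators 6 rose and none fell in limma (0 lower at an unadjusted p under 0.05), with a median of 0.25. They were the inhibitors of Ras and ERK signalling Spry1 (1.08), Spred1 (1.07) and Spred2 (0.77), and the genes Sh3kbp1 (0.82), Socs5 (0.77) and Cblb (0.57), whose products take part in the internalisation or degradation of EGFR. Spry1 stood at 10.87, 10.69 and 10.83 in the mutants, against 9.58, 9.97 and 9.59 in the controls (limma adjusted p = 0.00353). Spred1 stood at 11.30, 10.78 and 11.12 in the mutants, against 9.90 to 10.11 in the controls (limma adjusted p = 0.00555). Both genes separated the groups and, with Spred2, passed in all 19 alternative settings. Without mutant 3 the count was 3, and without mutant 1 it was 4, when Sh3kbp1 and Cblb did not pass. Cblb did not pass without control 2 either (limma adjusted p = 0.0616).

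Among 10 measured scaffolds and co-receptors 2 rose and 3 fell, with a median of −0.10. Cd44, a hyaluronan receptor that can present HB-EGF and, in rat Schwann cells, associates with ERBB2, had the largest difference of the 5. It stood at 10.06, 9.57 and 9.97 in the mutants, against 8.28, 7.92 and 7.96 in the controls (difference 1.81, SE 0.16, 3.52-fold, limma adjusted p = 0.00123). Sdc2, a heparan sulphate proteoglycan, stood at 11.59, 11.35 and 11.60 in the mutants, against 10.50, 10.49 and 10.58 in the controls (difference 0.99, limma adjusted p = 0.00176). Neither gene overlapped between groups, and both passed in all 19 alternative settings. Plxnb1, a semaphorin receptor that binds ERBB2, fell by 0.92, and the tetraspanins Cd9 and Cd82 fell by 0.89 and 0.59. Without mutant 3, or without both samples numbered 2, none of these falls passed in limma (3 of 3 had an unadjusted p under 0.05), and without mutant 2 only 1 did.

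**Figure D3:**
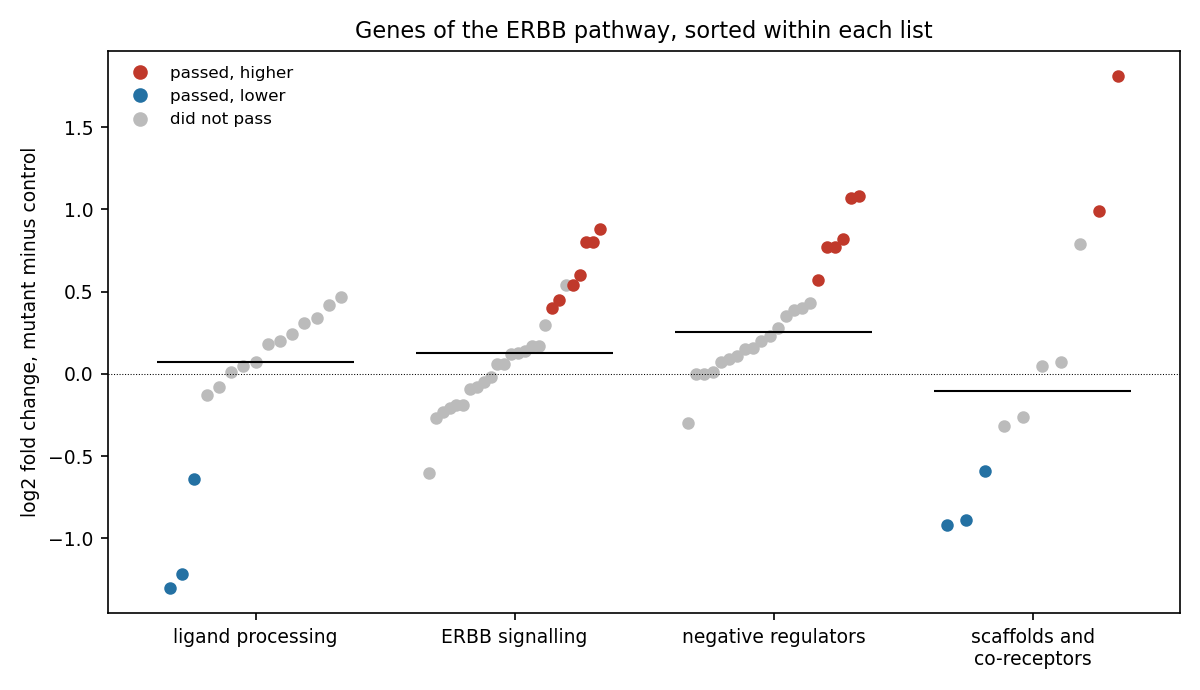
Log2 fold change, mutant minus control (y axis), of each measured gene in 4 lists of the pathway, sorted within the list, with the list's median as a line. Coloured points passed the test (red higher, blue lower), and Cd44 at 1.81 is the highest point.

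By the root mean square difference of log2 values over the 6 arrays, after subtracting each gene's own mean, the genes most like Egfr were Cyfip2 (0.046), Skil (0.053) and Zeb1 (0.064), the last a paralog of the deleted gene. Zeb1 differed by 1.00 between the groups (limma adjusted p = 0.0028). Because Zeb1 was picked for its likeness to Egfr over these same arrays, that difference and p follow from the choice and are not separate evidence. Nearest to Hbegf were Wwc1 (0.043), Tenm3 (0.076) and Fam180a (0.084). Hecw2 (0.050), Abca2 (0.057) and Ak5 (0.060) were nearest to Erbb3. For Nrg1 the nearest genes lay farther off, at 0.157 for Upk1b, 0.169 for Jun and 0.196 for Plscr1. The measure is a description over 6 arrays, ranked among 20239 genes.

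**Figure D4:**
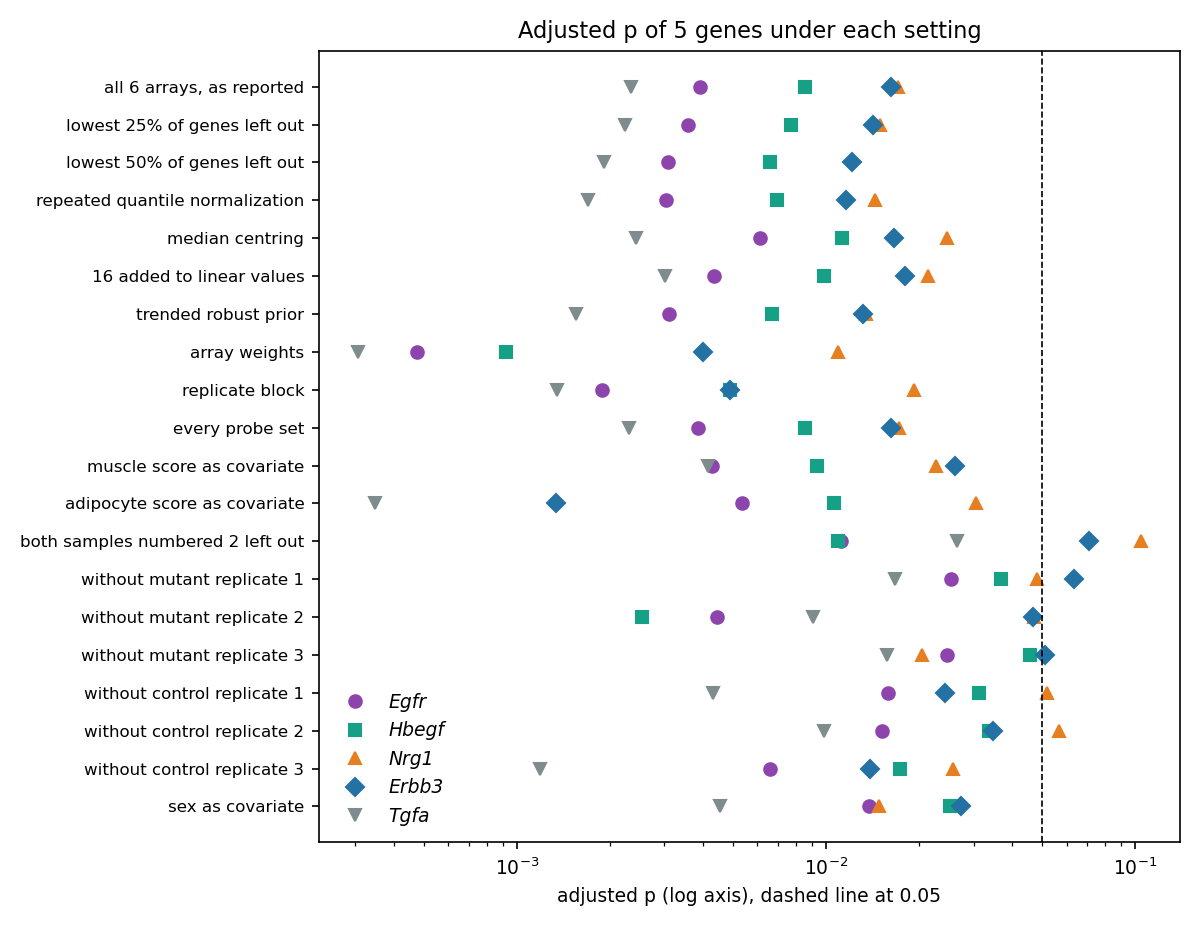
Adjusted p (x axis, log scale, dashed line at 0.05) of Egfr, Hbegf, Nrg1, Erbb3 and Tgfa with all 6 arrays and under each of 19 alternative settings (rows). Egfr, Hbegf and Tgfa lie left of the line in every row, while Erbb3 and Nrg1 each lie right of it in 3 rows.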

How the data were processed

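Trizol-extracted RNA of 6 sciatic nerves was run on 1-colour Affymetrix arrays after biotin labelling, per the labels' protocols. The authors deposited 1 table of log2 values, between 3.55 and 14.52, whose log base was inferred from that range. Limma is named in the submitters' processing notes. Background correction, normalization, summarisation and build: not given in the sources used here. Of 21225 probe sets, 20239 had 1 gene symbol in the platform annotation, matched by Entrez number to RefSeq GRCm38.p6, and 986 were unnamed here. The table held 0 columns of other samples.

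Mutant was compared with control in limma 3.58.1 under R 4.3.3 (lmFit, eBayes, two-sided, no block, 6.893 degrees of freedom) over all named genes, with Benjamini-Hochberg adjustment over them. The fit was tested on simulated data. Labels call the samples biological replicates. Same-numbered samples correlated at 0.36, 0.574 and 0.295 in their deviations from the group means, so the numbers were treated as pairs in an alternative with a replicate block. Mutant 1 and control 3 correlated at 0.303, so the pairing is not certain.

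Genes, lists and alternatives were chosen with earlier results of these data known. Sex as a covariate was added after seeing the data. All members were named, and in each pathway list up to 6 genes that passed, by size. Of the members that passed, the 3 nearest genes over the arrays were named. Nfatc4, Egf, Ereg, Epgn, Nrg4, Adam17, Bace1, Rhbdf1 and the marker genes were named after their values were seen. Promoters are RefSeq windows of GRCm38.p6. Plots used matplotlib 3.10.9 (Python 3.11.15). Precision is limited by the number of arrays, which have no read depth. No detection calls were used.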

Additional observations from a re-analysis of the deposited data

How the results depend on the processing

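The 19 alternatives left out low genes (25% or 50%), normalized, centred or offset the values (16 on the linear scale), changed the prior, weighted arrays, used the replicate block or every probe set, used muscle, adipocyte or sex covariates, or left out samples. Members that passed kept their direction in all 75 values, of which 69 passed and 6 did not, 3 each for Erbb3 and Nrg1. Nrg1 was below the filter at 50%. The count of members that fell was 1, and 0 without both samples numbered 2, and 0 to 1 when 1 sample was left out. With the replicate block the counts were 3 higher and 1 lower, with Erbb3 at −1.14. The block changed no call of a member. Among the other named genes, those that no longer passed with it included Nfatc4, Cldn5 and Vwf.

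Among the genes that did not pass, 7 of 91 values of members turned sign, and so did some of Egf and Nrg4, without passing unless stated. Nrg2 was −0.0033 with median centring, −0.11 without both samples numbered 2 and −0.03 to 0.17 with 1 sample left out. Btc was −0.03 with median centring and −0.04 to 0.07 with 1 left out. Ranges with 1 left out were −0.20 to 0.05 for Erbb2, −0.57 to 0.15 for Egf and −0.75 to 0.58 for Nrg4. Nrg4 was 0.52 with the adipocyte covariate, where it passed, and 0.31 with sex.

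Over all genes 1948 passed, 3655 with array weights, 896 without mutant 1 and 910 without mutant 3. Signalling genes that rose numbered 7, and 1 to 8 over the alternatives, with 4 under median centring and 4 with sex. Negative regulators that rose numbered 6, and 10 with array weights. Ligand-processing genes that rose numbered 0, and 3 with array weights, 2 without mutant 2 and 1 with repeated quantile normalization. The adipocyte covariate added 1 fall among signalling genes and 1 among negative regulators. Signal near background limits Nrg1, Nrg2, Nrg3 and Btc.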
